A study of Mus musculus with 6 samples.

Results

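The genes described here make reactive oxygen and nitrogen species: the NADPH oxidase genes of epithelium (Duox2, Duoxa2, Nox1 and Noxo1), those of phagocytes (Cybb, Cyba, Ncf1 and Ncf4), and Nos2, the inducible nitric oxide synthase. Each was read through the probe sets, groups of short probes for 1 transcript, that the array annotation gives to its symbol alone. Of the 9 genes, 7 had such a probe set, 11 probe sets in all, out of 18194 genes and 45101 probe sets on the array. The annotation used listed none for Duox2 and Nox1, whose levels were not analysed here, so the epithelial side rested on Duoxa2 and Noxo1, 2 of its 4 genes.

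Colon and liver RNA of male C57BL6/J mice, 7 weeks old, was hybridised to Affymetrix mouse expression arrays. RNA from a group's 7 mice was pooled, which gave 1 array for each group and tissue and 6 arrays in all. Control mice (CON) had the basal diet and plain water. DSS mice had the same diet with 7 days of plain water and then 1.5% (w/v) dextran sodium sulphate of 40 kDa, a polymer that injures colonic epithelium. DSSPAR mice ate a diet with 2% parsley throughout and had the same order of plain water and polymer. The polymer was given for 10 days in DSS and 9 days in DSSPAR by the treatment protocols, while the husbandry text gives 9 days only, so effects of diet and of exposure time cannot be told apart. Each ratio compares a single array with a single array and has neither a replicate check nor a p-value.

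NADPH oxidases carry electrons from NADPH across a membrane to oxygen. NOX2, the product of Cybb, does this in neutrophils and macrophages as cytochrome b558, together with the small subunit p22phox (Cyba). It is switched on when the cytosolic organiser p47phox (Ncf1), its partner p40phox (Ncf4) and a RAC GTPase move to the membrane, and its superoxide serves to kill ingested microbes. NOX1, a close relative in colonic epithelium, uses the same p22phox with an organiser of its own, NOXO1 (Noxo1). DUOX2 releases hydrogen peroxide at the mucosal surface and needs the maturation factor DUOXA2 (Duoxa2) to leave the endoplasmic reticulum. NOS2 makes nitric oxide from arginine in activated macrophages and inflamed epithelium.

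Upstream sequences are shown for a pair of genes of each side, chosen among the members that read higher in the DSS colon. RefSeq promoters (build GRCm38.p6) were found for 7 of the 9 members. Each run is the 250 bases before the start site, 5′ to 3′ along the gene, with capitals marking matches to any of 6 short motifs on either strand.
Duoxa2 (chr2:122298650-122298899, + strand): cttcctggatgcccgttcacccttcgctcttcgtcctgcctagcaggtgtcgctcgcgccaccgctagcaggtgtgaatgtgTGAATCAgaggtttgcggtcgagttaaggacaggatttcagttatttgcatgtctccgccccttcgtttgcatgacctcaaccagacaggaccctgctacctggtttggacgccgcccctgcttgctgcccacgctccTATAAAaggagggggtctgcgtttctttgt
Noxo1 (chr17:24695984-24696233, + strand): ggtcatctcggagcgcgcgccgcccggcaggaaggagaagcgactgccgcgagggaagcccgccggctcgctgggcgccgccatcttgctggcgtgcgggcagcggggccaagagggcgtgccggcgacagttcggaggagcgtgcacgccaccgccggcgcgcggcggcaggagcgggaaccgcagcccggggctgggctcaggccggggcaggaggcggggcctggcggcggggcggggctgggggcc
Cybb (chrX:9469325-9469574, - strand): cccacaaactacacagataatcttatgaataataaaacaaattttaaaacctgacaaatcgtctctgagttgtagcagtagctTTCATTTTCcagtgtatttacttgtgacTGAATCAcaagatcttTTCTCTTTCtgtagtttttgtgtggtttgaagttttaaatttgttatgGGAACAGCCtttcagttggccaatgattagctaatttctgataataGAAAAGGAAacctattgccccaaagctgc
Ncf1 (chr5:134229626-134229875, - strand): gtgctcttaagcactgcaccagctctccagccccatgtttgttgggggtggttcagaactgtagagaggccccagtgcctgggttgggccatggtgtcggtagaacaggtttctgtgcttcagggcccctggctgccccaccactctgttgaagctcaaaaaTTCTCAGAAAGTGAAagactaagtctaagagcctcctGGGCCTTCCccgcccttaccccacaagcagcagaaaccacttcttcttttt
The motifs were the interferon-linked GAS (TTCNNNGAA) and ISRE (GAAANNGAA), NF-kB (GGANNNNCC), PU.1 (GAGGAA), AP-1 (TGANTCA) and the TATA box (TATAAA). Before all 32851 start sites of the table, the GAS letters stood in 7.02% of windows, ISRE in 7.13%, NF-kB in 42.3%, PU.1 in 23.3%, AP-1 in 6.75% and the TATA box in 12.4%. Duoxa2 held a TATA box 30 bases before its start and an AP-1 match at 168 bases. Cybb held ISRE letters at 29, 123 and 167 bases, an NF-kB match at 75 bases and an AP-1 match at 139 bases. In Ncf1 a GAS match at 88 bases overlapped an ISRE match at 82 bases, and an NF-kB match stood at 51 bases. Noxo1 held none of these letters in the window. Among members whose sequence is not shown, Cyba held 1 match, to NF-kB, Nox1 held matches to NF-kB and PU.1, and Duox2 held none. A match describes letters and does not show binding.

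Values are linear intensities, scaled apart in the tissues, so levels were compared only within a tissue and a probe set. The median of all intensities on a tissue's 3 arrays served as a floor, 25.1 in colon and 96.6 in liver. A gene was measured in a comparison when either array lay above the floor, and lower readings were raised to it, so that such a fold is a lower bound, written "at least". The brightest probe set stood for a gene that had several. Log2 ratios from the brightest and second brightest probe sets of a gene differed with a robust SD of 0.36 to 0.42 in colon and 0.48 to 0.57 in liver. The median of a whole array was lower in DSS than CON by a log2 ratio of -0.084 in colon and -0.15 in liver, and lower again in DSSPAR than DSS (-0.20 and -0.16). All 17 colon epithelium markers lay above the floor on each colon array and all 10 hepatocyte markers with a probe set on each liver array, while Alb, the albumin gene, lay below it in colon.

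In colon, every measured member read higher in DSS than in CON, where 54.1% of all genes lay above 0. By 2-fold or more, 4 of the 6 measured were higher and none was lower, beside 5.18% of 11952 genes higher and 1.97% lower. Duoxa2 read 17.8 in CON, 51.8 in DSS and 50.6 in DSSPAR. Its CON reading lay below the floor and both colitis readings above it, near each other, and DSS was at least 2.07-fold above CON. Noxo1 read 514, 885 and 937 in the same order, far above the floor, and was 1.72-fold higher in DSS.

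Cybb, the catalytic subunit of the phagocyte oxidase, had the largest ratio of the 6. Its brightest probe set read 74.4 in CON, 275 in DSS and 205 in DSSPAR. DSS was 3.70-fold above CON, a ratio that 1.14% of genes reached. One of its other probe sets read 12.8, 48.0 and 29.0, and the remaining one 22.8, 28.0 and 27.8, with CON below the floor on both. All 3 read highest in DSS, but the size differed, and the second brightest gave a log2 ratio of 0.94 in place of 1.89.

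Cyba, the subunit that both oxidases need, read 427 in CON, 921 in DSS and 899.8 in DSSPAR and was 2.16-fold higher in DSS than in CON. Ncf1 read 42.6, 112 and 79.2 on its brightest probe set, 2.64-fold higher in DSS. Its other probe sets lay below the floor on all 3 colon arrays, and with the floor at the 75th percentile its log2 ratio was 0.11 in place of 1.40. Ncf4 read 43.6, 85.2 and 71.3 on its 1 probe set, 1.96-fold higher in DSS. For each of these phagocyte genes both colitis readings lay above the CON reading. The median log2 ratio was 1.25 over the 4 phagocyte genes and 0.92 over the 2 epithelial genes, against 0.042 over all genes. The epithelial median differed from the phagocyte median by -0.34, inside the robust SD of 0.41 between probe sets.

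Nos2 lay under the floor on all 6 arrays. Its 1 probe set read 1.99, 2.99 and 1.33 in colon and 59.0, 18.9 and 5.92 in liver, in the order CON, DSS, DSSPAR. These readings give no fold and do not show that the transcript was missing or alike between groups.

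**Figure D1:**
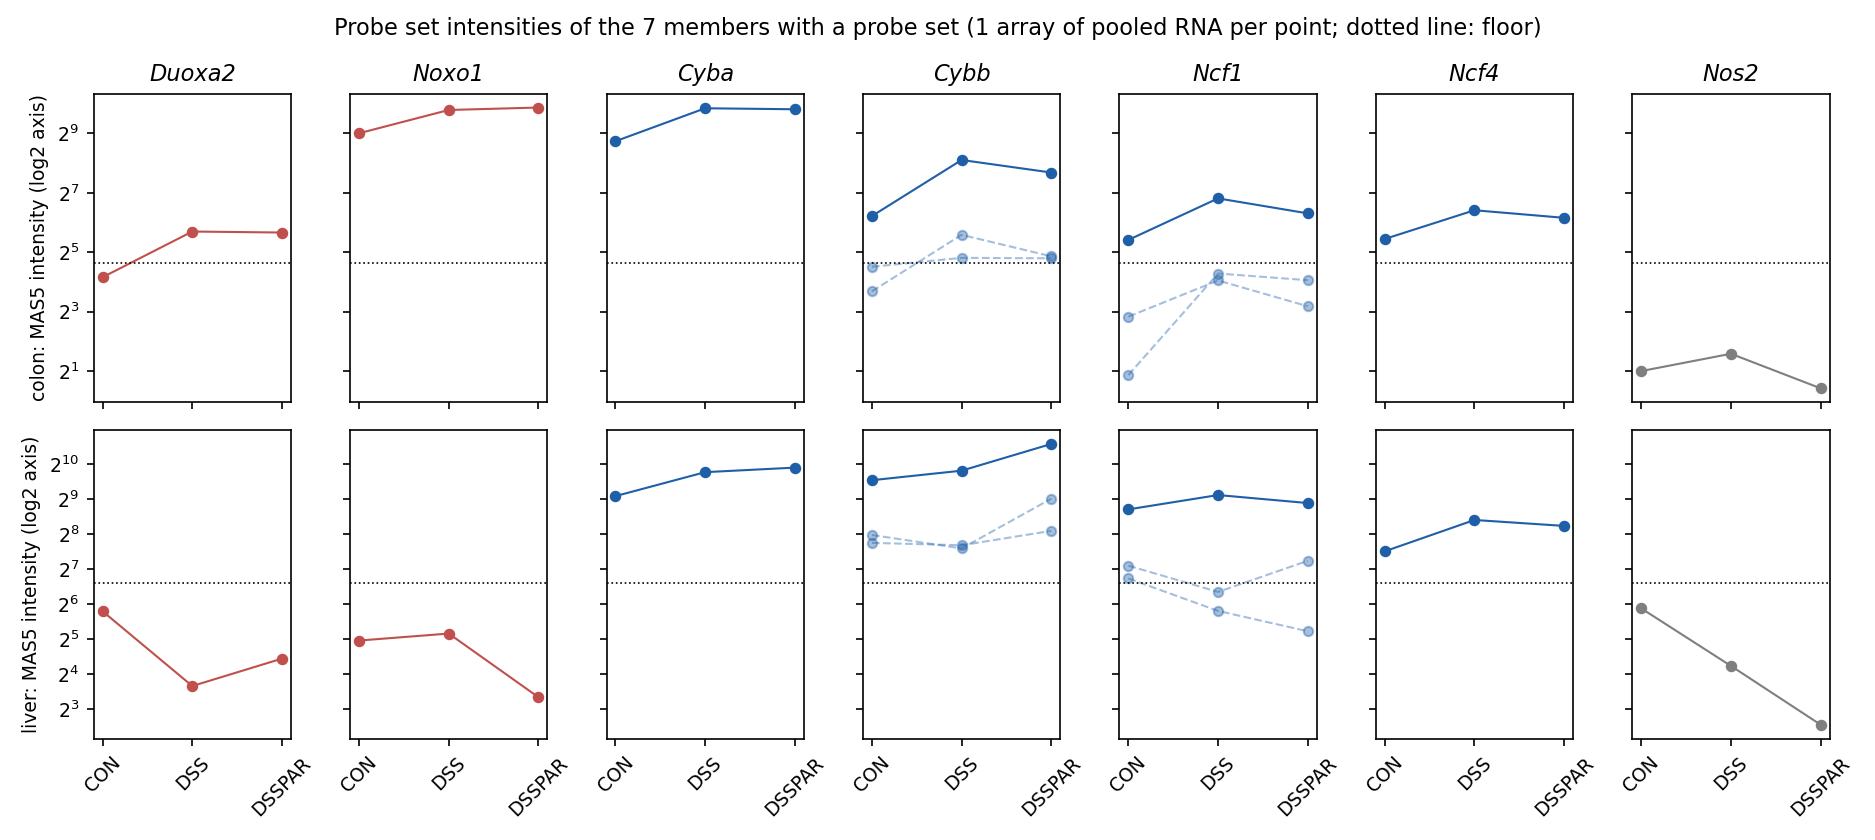
Intensity (log2 axis) of each probe set of the 7 members by group, in colon (top) and liver (bottom), with 1 array of pooled RNA per point; red marks epithelial genes, blue phagocyte genes, grey Nos2, solid lines the probe set that stands for the gene, dashed lines its others, and the dotted line the floor. In colon the solid lines are higher in DSS than in CON for the 6 measured members; Nos2 lies under the floor in both tissues, and Duoxa2 and Noxo1 do so in liver.

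With parsley in the diet, no member differed 2-fold from DSS in colon in either direction, beside 1.64% of 11730 genes that did. Both epithelial genes stayed near their DSS readings, with log2 ratios of 0.082 for Noxo1 and -0.034 for Duoxa2. The cytosolic and catalytic phagocyte genes read lower: Ncf1 at -0.50, Cybb at -0.42 and Ncf4 at -0.26. Cyba, at -0.033, lay with the epithelial genes. All 4 phagocyte genes were thus below 0, as 51.7% of genes were. Duoxa2 and Cyba took the other sign under some scalings, whereas Ncf1, Cybb and Ncf4 stayed below 0 and Noxo1 above 0 in every setting that gave them a value.

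The epithelial median (0.024) exceeded the phagocyte median (-0.34) by 0.36 on the log2 scale, as large as the robust SD of 0.36 between probe sets of a gene. Over the settings tried, the difference was 0.19 to 0.45. As deposited, Ncf1 and Cybb lay past that SD and Ncf4 did not. With arrays centred on their medians, Ncf1 (-0.31) and Cybb (-0.23) lay inside it as well. Whether other pools of mice would give the same order was not tested.

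DSSPAR read above CON in colon for all 6 members, as for 52.6% of genes. By at least 2-fold 3 of 6 were higher and none lower, beside 3.51% of 11808 genes higher and 2.1% lower. Cybb was 2.76-fold higher, Cyba 2.11-fold and Duoxa2 at least 2.02-fold. Below the threshold stood Ncf1 (1.86-fold), Noxo1 (1.82-fold) and Ncf4 (1.64-fold). The medians of the sides, 0.94 and 0.99, differed by -0.046, a difference that took the other sign in 3 settings. Each comparison shares an array with the others, so they are not independent.

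**Figure D2:**
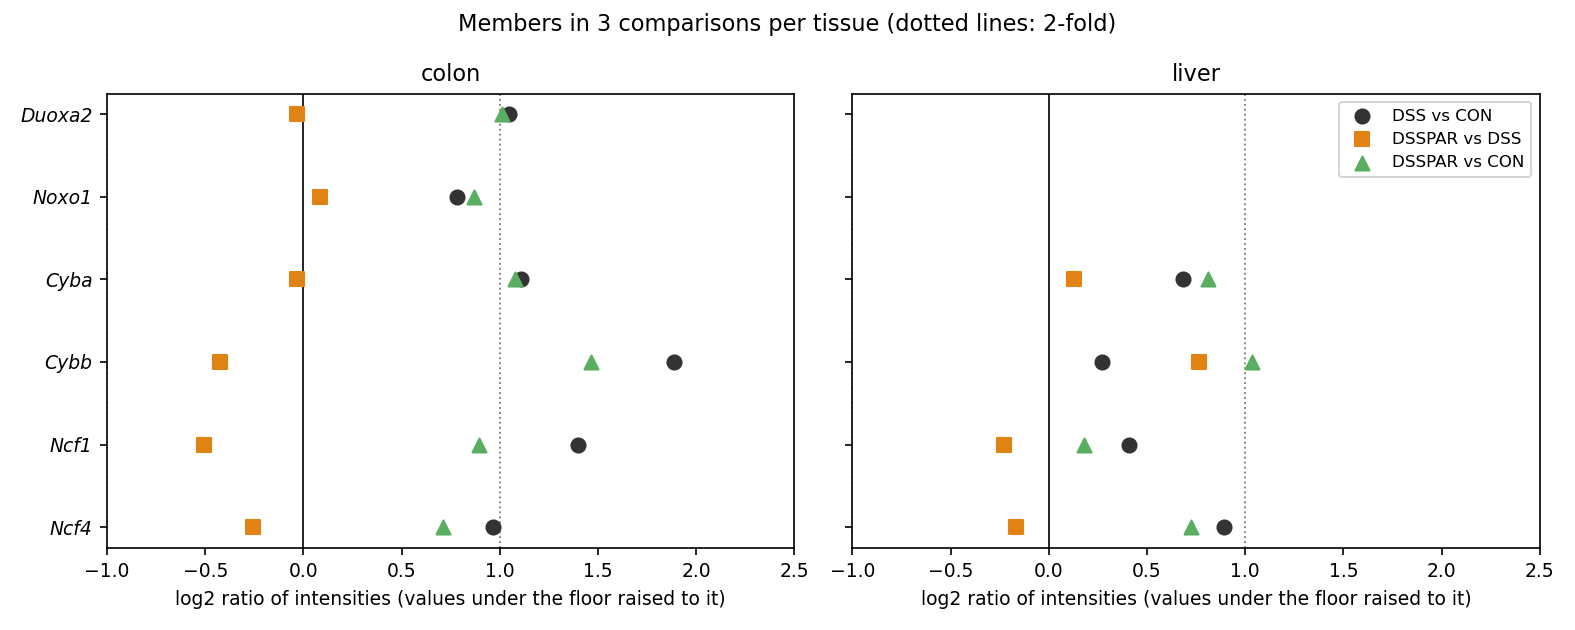
Log2 ratio of intensities for each measured member in colon (left) and liver (right), 1 array per group; circles give DSS against CON, squares DSSPAR against DSS, triangles DSSPAR against CON, and dotted lines mark 2-fold. In colon the squares of Duoxa2, Noxo1 and Cyba lie near 0 and those of Cybb, Ncf1 and Ncf4 to its left; in liver the square of Cybb stands at 0.76, apart from the rest.

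Pan-leukocyte, macrophage and neutrophil markers moved with the phagocyte genes. Of 4 lymphocyte markers measured, 3 lay above 0 and 1 was 2-fold higher or more in the DSS colon than in CON (median 0.64). In whole tissue more cells of a type and more RNA per cell cannot be told apart. From CON to DSS in colon, all 9 pan-leukocyte markers were 2-fold higher or more (median log2 ratio 1.77), with 14 of 16 for macrophages and monocytes (median 1.72) and 4 of 8 for neutrophils (median 1.30). The neutrophil median is a lower bound, since 1 neutrophil marker alone lay above the floor in CON. Cybb, at 1.89 on its brightest probe set, lay above those medians, but its mean over probe sets (1.36) passed the neutrophil median only. Ncf1 (1.40 on its brightest probe set) lay above the neutrophil median alone, and its mean over probe sets (0.40) lay below all of them. With the floor at the 75th percentile the neutrophil median was 3.01, above Cybb (1.40) and Ncf1 (0.11). The place of both genes beside neutrophil markers is therefore not settled. Cyba (1.11) and Ncf4 (0.97) lay below all 3 medians. Summed intensities were 1172 in CON, 4086 in DSS and 3956 in DSSPAR for pan-leukocyte markers. They were 2360.1, 8068 and 7481 for macrophage markers and 154, 3357 and 2584 for neutrophil markers. The genes S100a8 (2057 in DSS and 1423 in DSSPAR) and S100a9 (839 and 923) made up most of the neutrophil sums in both colitis arrays. The granule peroxidase gene Mpo, which was not in that list, was under the floor on each colon array. All these sums were lowest in CON and highest in DSS. Their part in the oxidase ratios was not tested.

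Colon epithelium markers differed among themselves where Duoxa2 and Noxo1 were higher. Of 17 such markers, 0 were 2-fold higher in DSS than in CON and 2 were lower, the transcription factor gene Cdx2 (-1.16) and the carbonic anhydrase gene Car1 (-1.01). Above 0 lay 7 of them, among them the water channel gene Aqp8, which read 1346 in CON, 2411 in DSS and 3704 in DSSPAR, a log2 ratio of 0.84 in DSS and 1.46 in DSSPAR against CON, beside 0.78 and 0.87 for Noxo1. The list median was -0.027, or 0.057 with arrays centred on their medians, and the markers summed to 64623 in CON, 61468 in DSS and 66716 in DSSPAR. Epcam, an epithelial adhesion molecule, read 5827, 5720.2 and 6157. All 6 crypt stem cell markers measured lay below 0, with medians of -0.60 in DSS and -1.03 in DSSPAR against CON. Exocrine pancreas genes were 2-fold higher or more in 8 of 10 cases in the DSS colon array (sums of 2771, 4432 and 2247), and squamous epithelium genes in 5 of 9 (sums of 289.6, 556 and 475). In DSSPAR against CON, 0 of 3 pancreas genes measured and 3 of 9 squamous genes were 2-fold higher or more. The part of any of these lists in the readings of Duoxa2 and Noxo1 was not tested.

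For DSSPAR against DSS in colon, the median over macrophage markers was -0.23, with none of 16 past 2-fold. With arrays centred on their medians it was -0.035. Neutrophil markers had a median of -0.62, with 2 of 8 lower by 2-fold or more. Of the 8, 4 lay above the floor in DSSPAR, so that median is a bound and the fall may be larger. Pan-leukocyte markers stood at -0.15, or at 0.047 with arrays centred on their medians. Cybb (-0.42) and Ncf1 (-0.50) lay between the macrophage and neutrophil medians. With the floor at the 75th percentile those medians were -0.23 and -0.43, and Ncf1 (-0.11) did not lie between them. The part of either cell type was not tested.

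**Figure D3:**
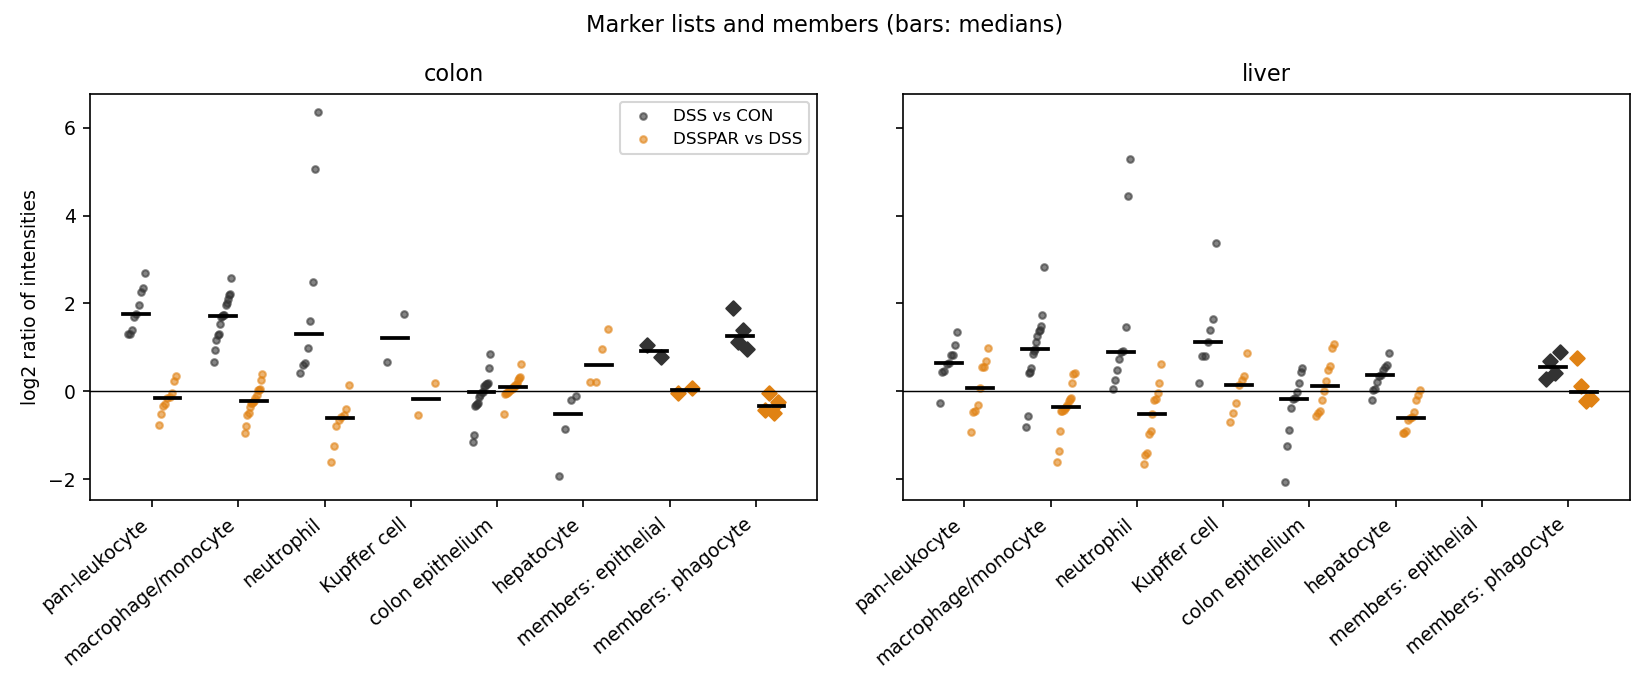
Log2 ratio of each measured marker gene (points) and each member (diamonds) in colon (left) and liver (right), DSS against CON in black and DSSPAR against DSS in orange, with bars at the medians. In colon the black medians stand at 1.30 (a lower bound) for neutrophil, 1.72 for macrophage and -0.027 for colon epithelium markers. The epithelial members have no value in liver.

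Nearest to Cybb in colon, by the distance between the pairs of log2 ratios to CON, was Psmb8, a subunit of the immunoproteasome, at 0.037 log2 units. It read 218, 785 and 601 in CON, DSS and DSSPAR. The macrophage gene Mpeg1 (0.066) and the leukocyte integrin gene Itgb2 (0.082) came next. The search covered 10543 genes above the floor on all 3 arrays, of which 23 lay within 0.25, and 3 arrays make such likeness easy to reach.

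Other genes of the oxidases, their subunits, relatives and GTPases, made a list of 18, of which 15 had a probe set and 12 were measured in colon. In DSS 2 of them were 2-fold above CON and none below (median 0.29). Rac2, the leukocyte GTPase that activates NOX2, read 29.8 in CON, 98.0 in DSS and 72.2 in DSSPAR. Arhgdib, an inhibitor that binds small GTPases, read 68.3, 142 and 119.6. Both read highest in DSS, with DSSPAR between DSS and CON. DSSPAR against DSS gave a median of -0.24, 9 of 12 below 0 and none past 2-fold. That median was -0.048 with arrays centred on their medians. Duox1, its maturation factor Duoxa1 and Nox4, picked out after their values were seen, lay under the floor on every colon array. Noxa1 and Nox3 were not analysed here.

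Around nitric oxide production, 4 of 18 genes were 2-fold higher or more in the DSS colon than in CON and none lower (median 0.14). Gch1, which makes the tetrahydrobiopterin that nitric oxide synthases need as cofactor, read 163 in CON, 631 in DSS and 626 in DSSPAR. Its feedback regulator Gchfr read 33.9, 84.9 and 87.0, so both were as high in DSSPAR as in DSS. Ddah1, which degrades a natural synthase inhibitor, read 289, 667 and 573. The arginine transporter gene Slc7a2 read 26.6, 55.8 and 22.2, higher in DSS alone. It was the 1 gene of the list past 2-fold in DSSPAR against DSS, with a floored log2 ratio of -1.15.

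Enzymes that use or remove hydrogen peroxide differed in both directions, with 2 of 8 higher and 1 lower by 2-fold in colon DSS against CON. Gpx2, the glutathione peroxidase of gut epithelium, read 1456 in CON, 5344 in DSS and 4801 in DSSPAR. Lpo, a peroxidase that makes antimicrobial oxidants, read 37.4, 89.5 and 43.2, and Cat, the catalase gene, read 930.2, 421 and 527. Gpx2 was thus high in both colitis arrays, Lpo in DSS alone, and Cat was low in both.

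Among inducers and signal carriers, 4 of 18 genes were 2-fold higher or more in colon DSS than in CON and none lower (median 0.67). Il1b, a cytokine gene of activated myeloid cells, read 54.2 in CON, 369 in DSS and 293 in DSSPAR. Il6 was above the floor in DSS alone, at 143. Nfkbiz, an inducible cofactor of NF-kB, read 611, 1379.6 and 1510.1, and the transcription factor gene Cebpb read 134, 449.8 and 235. Il1b and Nfkbiz were high in both colitis arrays, and Il6 was the 1 gene of 18 past 2-fold in DSSPAR against DSS.

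**Figure D4:**
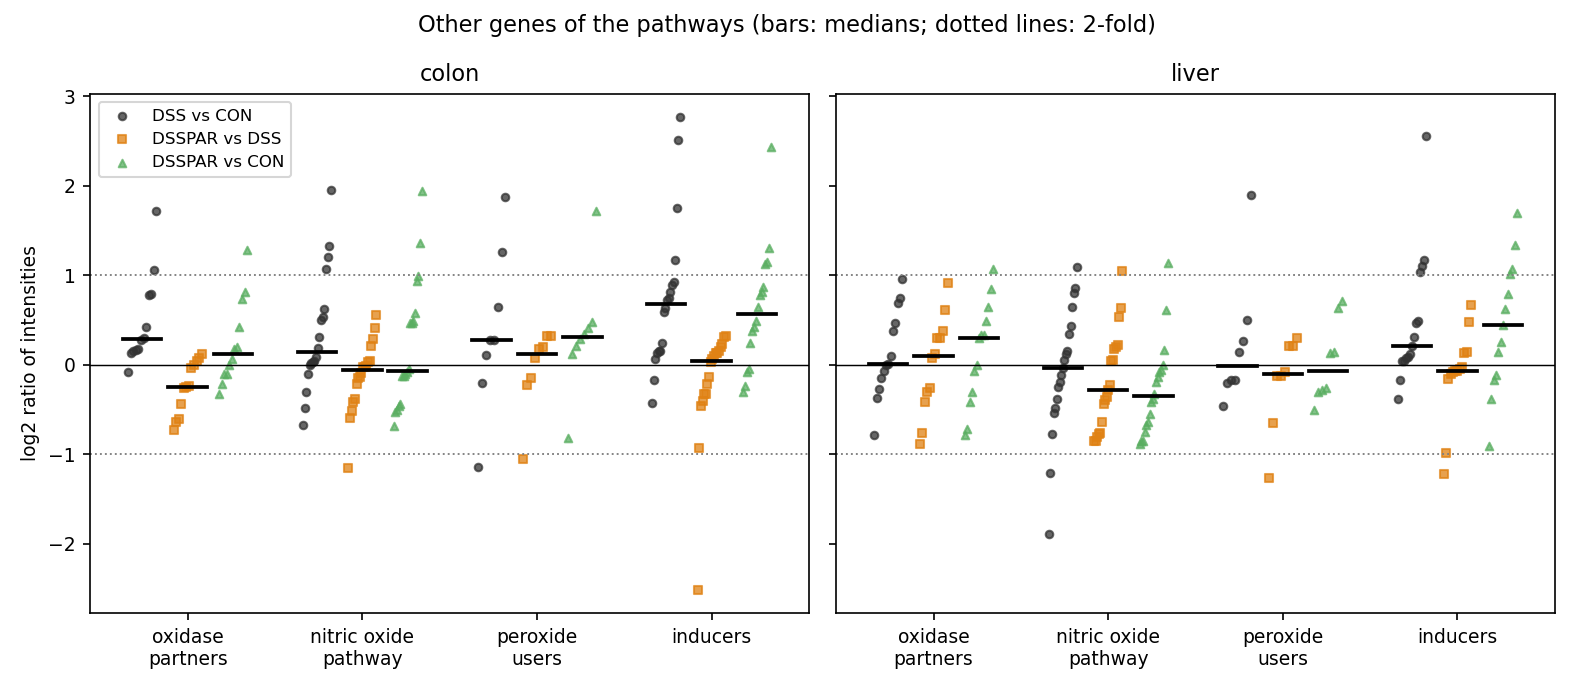
Log2 ratio of each measured gene of 4 lists (oxidase partners, nitric oxide pathway, peroxide users, inducers) in colon (left) and liver (right), with bars at the medians and dotted lines at 2-fold; circles give DSS against CON, squares DSSPAR against DSS, triangles DSSPAR against CON. Single genes pass 2-fold in each colon list for DSS against CON, while the list medians lie between 0.14 and 0.67.

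Liver gave no value for the epithelial side. Duoxa2 read 55.7, 12.7 and 21.9 and Noxo1 31.2, 35.9 and 10.2 in CON, DSS and DSSPAR, all under the floor, so the sides could not be compared there. The 4 phagocyte genes lay above the floor on each liver array. From CON to DSS none of the 4 differed 2-fold, beside 8.93% of 13034 genes that did. All 4 lay above 0, as 48.6% of genes did, with a median log2 ratio of 0.55, but other probe sets put Cybb and Ncf1 below 0.

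Ncf4 read 182 in CON, 338 in DSS and 301 in DSSPAR, 1.86-fold higher in DSS than in CON. Cyba read 542, 870.3 and 952, 1.61-fold higher. Both were higher in each colitis group than in CON. Ncf1 read 417, 554 and 473 on its brightest probe set, 1.33-fold higher in DSS. Its other probe sets, nearer the floor, read 137, 81.6 and 151 and 107, 56.1 and 37.5, so its direction in liver depended on the probe set.

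Cybb read 742 in CON, 896 in DSS and 1520.0 in DSSPAR on its brightest probe set. It was the 1 of 4 members past 2-fold in liver DSSPAR against CON, 2.05-fold higher, beside 3.26% of 12721 genes higher and 3.45% lower. Its other probe sets read 251, 193 and 515 and 215, 205 and 273. DSSPAR read highest on all 3, whereas they did not share a direction for DSS against CON. Cybb fell short of 2-fold against CON with quantile normalization (log2 ratio 0.96) and with the mean over probe sets (0.80).

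In liver DSSPAR against DSS no member differed 2-fold, beside 7.03% of 12398 genes. Cybb was 1.70-fold higher, a log2 ratio of 0.76 that passed the robust SD of 0.57 between probe sets. Cyba (0.13), Ncf4 (-0.17) and Ncf1 (-0.23) lay inside it. Against CON all 4 read higher in DSSPAR, as 46.2% of genes did, with Cyba 1.76-fold, Ncf4 1.65-fold and Ncf1 1.13-fold higher, the last with the other sign on 1 probe set.

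By their medians, macrophage, Kupffer cell, neutrophil and pan-leukocyte markers were higher in the liver of the DSS group too. Lymphocyte markers were not, with 3 of 4 measured below 0 (median -0.31). At least 2-fold above CON were 7 of 15 macrophage and monocyte genes (median 0.97), 4 of 7 for Kupffer cells, the resident macrophages (median 1.11), and 3 of 9 for neutrophils (median 0.90). S100a8, a neutrophil calprotectin gene, read 367 in CON, 14340.5 in DSS and 5429 in DSSPAR. Marco, a macrophage scavenger receptor gene, read 112, 1158 and 966. Both were highest in DSS. Others of the lists read highest in DSSPAR, as Cybb did, among them the receptor gene Csf1r, which read 6575, 9522 and 12431, the Kupffer cell gene Folr2, at 469, 536 and 977, and Itgb2, at 306, 417 and 668. In DSSPAR against DSS the macrophage median was -0.37, that of neutrophils -0.52, that of Kupffer cells 0.13 and that of pan-leukocyte markers 0.079. Above 0 lay 3 of 15 macrophage, 4 of 7 Kupffer cell and 5 of 9 pan-leukocyte markers. Summed intensities were 20825 in CON, 38733 in DSS and 34675 in DSSPAR for macrophage markers and 8777, 14799.6 and 14076 for pan-leukocyte markers. Hepatocyte markers had a median of -0.61 in DSSPAR against DSS, or 0.083 after quantile normalization, and the part of none of these cell types in the ratio of Cybb was tested.

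Of 13 other oxidase genes measured in liver, none passed 2-fold in DSS against CON (median 0.0017). In DSSPAR against CON Rac2 alone did, reading 104 in CON, 168 in DSS and 218 in DSSPAR, so it shared with Cybb its highest liver reading in DSSPAR. Nox4, an oxidase that is active without cytosolic partners, picked out after its values were seen, read 4142, 3723 and 3110.0. Of 19 genes around nitric oxide, 1 was higher and 2 lower by 2-fold in DSS. The arginine transporter gene Slc7a1 was higher, at 59.4, 205 and 213 with CON under the floor. Ddah1 read 4214, 1133 and 2338 and Ass1, an enzyme of arginine synthesis, 408, 177 and 256, both lowest in DSS. Gpx3, the plasma glutathione peroxidase, read 120.3, 449 and 187 and was the 1 of 8 peroxide users past 2-fold.

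Inducers were 2-fold higher or more in 4 of 15 cases in liver DSS against CON and lower in none (median 0.21). Nfkbiz read 914 in CON, 5361 in DSS and 2302 in DSSPAR. Stat3, which carries cytokine signals to the nucleus, read 1145, 2347 and 3715. Irf8, a transcription factor gene of myeloid cells, read 213, 479.8 and 446 and the receptor gene Tlr2 174, 375 and 353. Nfkbiz was thus highest in DSS and Stat3, as Cybb, in DSSPAR.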

How the data were processed

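Each array held pooled RNA of 7 mice, and 6 arrays made 6 groups of 1, by the group and tissue in the labels. The deposited values are linear intensities per probe set made with MAS5, per the submitters' processing notes; its version and target intensity: not given in the sources used here. Names came from the platform annotation: of 45101 probe sets 34958 carried 1 symbol, 932 several and 9211 were not listed; 0 value columns were left unused. Log2 ratios were taken within a tissue after flooring at the median of its 3 arrays, and calls made at 2-fold. No test was possible with 1 array per group. Lists were read by counts and medians (4 pathway and 10 marker lists, 194 genes, 171 with a probe set). The members and lists were chosen with earlier results of these data known. Named were all members, list genes past 2-fold (up to 6 per pathway list and comparison), up to 3 genes per marker list by size of ratio, and the 3 genes nearest to Cybb; Epcam, Alb, Mpo, S100a8, Aqp8, Csf1r, Folr2 and others outside the rule were picked after their values were seen. Alternatives were the floor at the 75th percentile, no floor, 3 other scalings, 3 other choices of probe sets and a 3-fold threshold; Cyba left out of the phagocyte side was added after the data were seen. The steps were tested on simulated data. Python 3.11.15, NumPy 2.4.6, pandas 2.3.3 and matplotlib 3.10.9 were used.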

Additional observations from a re-analysis of the deposited data

Results flagged for a closer look

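Cybb and Cyba, which together form cytochrome b558, had log2 ratios of DSSPAR to DSS of opposite sign in the tissues as deposited. Cybb was at -0.42 in colon and 0.76 in liver, and kept both signs in every setting that gave it a value. Cyba was at -0.033 in colon and 0.13 in liver, inside the robust SD between probe sets of 0.36 and 0.57. Its colon value took the sign of liver after centring each array by its median (0.16), and likewise when only probe sets above the floor set the centre (0.093). Each value rests on 1 array per group, and the difference between the tissues was not tested.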

How the results depend on the processing

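Counts of members past 2-fold depended on the floor, the scaling and the probe set. In colon DSS against CON the 4 members became 2 with the floor at the 75th percentile, 1 at a 3-fold threshold and 0 on second brightest probe sets, where 1 member was measured. In colon DSSPAR against CON the 3 became 5 with arrays centred on their medians, 1 with the higher floor, and 0 at 3-fold and on second probe sets. With no floor 1 member passed in colon DSSPAR against DSS. In liver the counts of 0, 0 and 1 (DSS against CON, DSSPAR against DSS, DSSPAR against CON) became 2, 2 and 4 with no floor, which let in readings under the floor. Centring on medians gave 1 in liver DSS against CON and 3 in DSSPAR against CON; the latter was 0 with quantile normalization, the mean over probe sets or 3-fold. Second probe sets gave 1 in liver DSSPAR against DSS. The epithelial minus phagocyte difference kept its sign in all settings for DSS against CON (-0.48 to -0.093) and DSSPAR against DSS (0.19 to 0.45), but for DSSPAR against CON (-0.046) it turned to 0.20 with no floor, 0.118 without probe sets of shared type and 0.045 without Cyba. Second probe sets gave it no value. The cause was not tested where no construction shows it. Of 199 values of single members under alternatives, 182 moved by less than the spread between probe sets, and none past 2-fold changed sign. Some of these values could not move, since a gene with 1 probe set keeps its value in the mean over probe sets. The count is therefore no measure of how steady the ratios are. Smaller ratios of Cyba and Duoxa2 in colon, and of Cybb and Ncf1 in liver, did change sign in some settings. Signal over background limits Nos2 and, in liver, Duoxa2 and Noxo1.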
